A study of Mus musculus with 18 samples.

Results

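The comparison concerns fat cells floated from the bone marrow of mice at 14 months of age, set against the same preparation at 6 months. Its members are the 3 bone marrow arrays of each age, 6 of the 18 arrays of the series, and were chosen by depot and age alone. All mice were male C57BL/6J animals on standard chow, and no group carried an allele or was given a treatment. Femurs and tibias were flushed, red cells were lysed, and the cells that floated on centrifugation were collected without sorting. Marrow yields little fat, so each group of 6 to 10 animals was combined into 3 pooled RNA preparations, 1 per array. The arrays are therefore replicates of pools, and their p values measure the spread between pools rather than between mice. Age also cannot be told apart from any difference in the handling of the groups. The other groups used below are bone marrow adipocytes of 18-month-old mice and epididymal adipocytes of 6 and 14 months, isolated from the same mice and labelled peripheral in the deposited records. Epididymal fat was minced and digested with warm collagenase before flotation, a step that the marrow did not undergo.

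Marrow fat lies in the same space as blood formation. Its adipocytes arise from stromal cells that express the leptin receptor, and these stromal cells also supply the chemokine and growth factor signals that hold stem cells and B-lineage progenitors in the marrow. Thin-walled sinusoidal vessels run through this space, B cells mature there, and plasma cells and macrophages reside there. A layer of floated marrow cells can thus carry RNA of blood, vessel and stromal cells beside that of fat.

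The label was checked with defining markers, each set against the same probe set in 6-month epididymal adipocytes. All 7 adipocyte markers measured were lower in bone marrow, with differences of -2.65 (Pparg) to -7.76 (Lep) on the log2 scale. Adiponectin (Adipoq) was at 8.07 ± 0.88 (SD of 3 log2 values) in 6-month bone marrow and 12.56 ± 0.04 in epididymal adipocytes. All 7 neutrophil markers were higher in bone marrow, by 5.52 to 6.53. Their 6-month epididymal levels varied widely between pools, with an SD of 1.30 (Elane) to 3.08 (Ngp), against 0.06 (Ngp) to 0.38 (Elane) in bone marrow. All 6 B-cell markers and all 5 macrophage markers were higher in bone marrow as well, by up to 3.42 and 1.96. The 4 endothelial markers were lower in bone marrow, with differences of -0.02 (Emcn) to -1.86 (Kdr). Of 3 stromal and osteoblast markers 2 were higher and 1 was lower. By these markers the preparation carried less adipocyte RNA than the epididymal one, and it carried RNA of blood cells. The paper counted similar shares of cells with the monocyte and macrophage marker CD11b in both preparations. By RT-PCR it found Fabp4, Plin1, leptin and adiponectin higher in the floated marrow cells than in those that did not float. Throughout, fewer cells of a type and less RNA per cell cannot be told apart in such bulk RNA, and the part of other cells in each result was not tested.

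Of 23410 probe sets that name a gene, 1189 (5.08%) rose and 839 (3.58%) fell between 6 and 14 months. A call means an adjusted p under 0.05 in limma, in a model with a mean for each of the 6 groups and an error per probe set shared by all 18 arrays. Changes are given as the 14-month minus the 6-month mean on the log2 scale, so that 1 stands for a doubling, with the standard error (SE). The median change over all tested probe sets was -0.02, and 248 rises and 72 falls reached a fold of 2. The 3 arrays of 14 months lay all above those of 6 months for 9.92% of probe sets and all below for 10.0%. Among the calls this held for 1137 rises and 769 falls.

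The 6-month arrays varied most. The median SD of a probe set was 0.219 at 6 months and 0.134 at 14 months, and it was 0.149 at 6 months without the first pool. That pool correlated with the other bone marrow arrays at 0.968 to 0.973 and they with each other at 0.982 to 0.994. Its mean level over 61 small nucleolar RNA probe sets was 7.66, against 6.37 to 6.85 in the other 8 bone marrow arrays. Without it 1057 probe sets rose and 719 fell. Without the third 14-month pool 655 rose and 376 fell, and 37 of the 140 called genes given by value below were not called. In a fit of the 6 arrays alone, whose error comes from these 2 groups, 0.982% rose and 0.175% fell. Of the 140 called genes given by value below, 93 were not called in that fit. With the arrays set equal on their cytosolic ribosomal protein genes 1175 probe sets rose and 326 fell, 78.3% of calls upward against 58.6%.

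**Figure D1:**
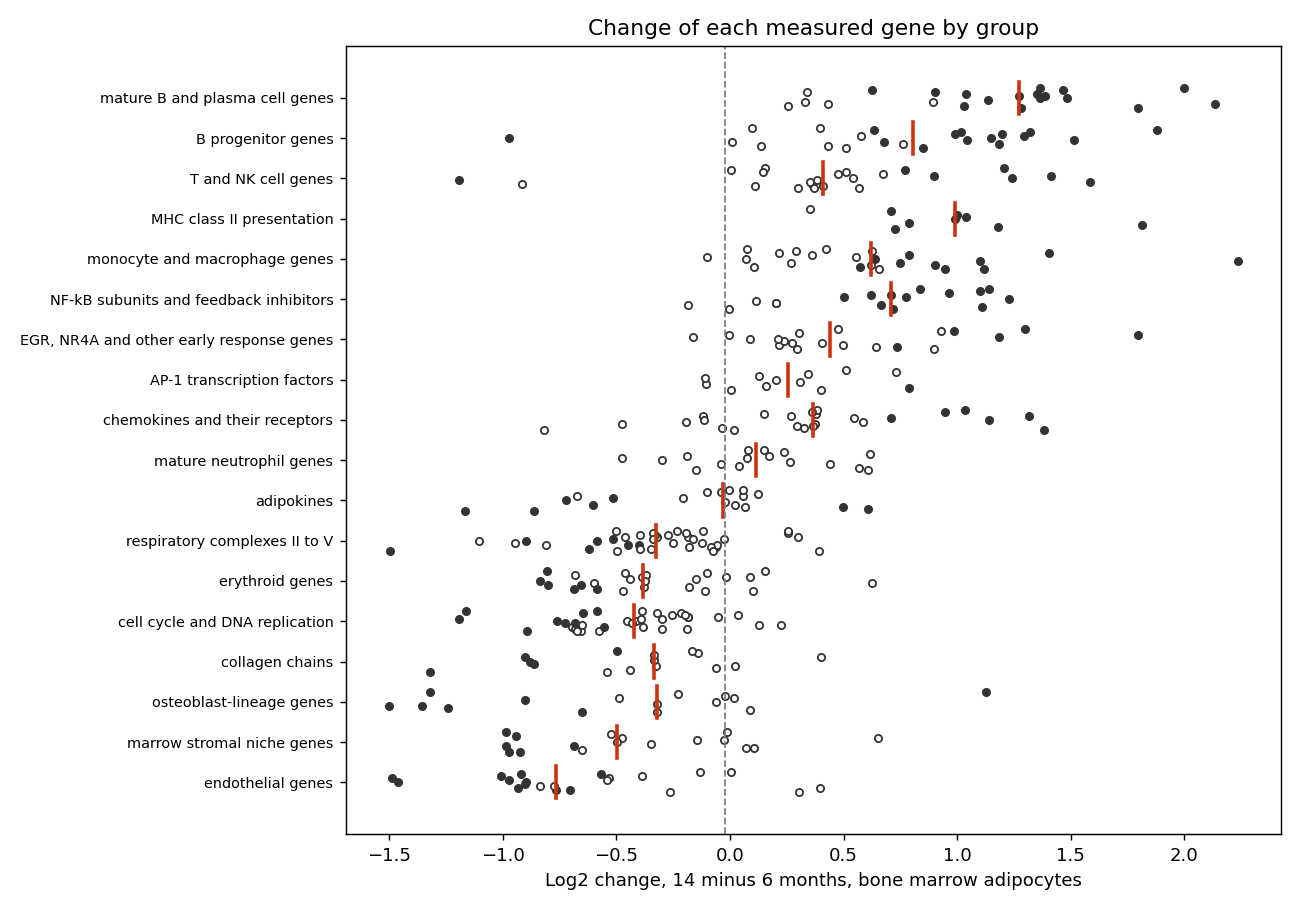
Log2 change from 6 to 14 months in bone marrow adipocytes (horizontal axis) of each measured member of 18 gene groups (rows). Filled points passed the limma test and open points did not, the tick marks the group's median, and the dashed line marks the median of all tested probe sets. Mature B-cell, MHC class II, NF-kB and macrophage genes lie mostly to the right, and endothelial, stromal, cell cycle and respiratory chain genes mostly to the left.

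Genes of mature B cells and plasma cells had the largest median change of the 58 gene lists used. Of 21 measured members 16 rose and none fell, against 5.08% of all probe sets, and the median change was 1.27. For 18 members the 14-month arrays all lay above the 6-month arrays. In the fit of the 6 arrays alone 12 members still rose, and 17 rose without the first 6-month pool.

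Prdm1 encodes the repressor Blimp-1, which drives B cells into plasma cells. Its log2 values were 6.12, 5.52 and 5.93 at 6 months and 7.92, 7.67 and 7.99 at 14 months. Every 14-month pool exceeded every 6-month pool by more than the groups' own range, and the change was 2.00 ± 0.16 (SE; adjusted p = 1.78e-06). Irf4, which acts beside Prdm1 in plasma cell formation, stood at 7.99, 7.73 and 8.21 at 6 months and 9.21, 9.29 and 9.58 at 14 months and rose by 1.39 ± 0.19 (adjusted p = 0.000233). Ms4a1, which encodes the B-cell surface protein CD20, gave 7.84, 7.83 and 7.21 at 6 months and 9.25, 9.22 and 9.79 at 14 months. Its change was 1.79 ± 0.24, about the size of the Prdm1 change (adjusted p = 0.000164). Cr2, the complement receptor of mature B cells, read 4.83, 5.34 and 5.29 at 6 months and 7.45, 6.74 and 7.67 at 14 months and rose by 2.13 ± 0.25 (adjusted p = 4.56e-05). Cd22, an inhibitory receptor of the B-cell surface, measured 6.77, 6.39 and 6.20 at 6 months and 7.68, 7.54 and 8.18 at 14 months, with no overlap between ages and a change of 1.35 ± 0.19 (adjusted p = 0.00027).

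The other risers of this group changed by 0.62 (Sdc1, the plasma cell proteoglycan CD138) to 1.49 (Mzb1, a chaperone of immunoglobulin secretion). They included the coactivator gene Pou2af1, the kinase gene Blk and the IgM heavy chain gene Ighm. Jchain, Xbp1, Cd37, Tnfrsf13c and Tnfrsf17 had positive changes that did not pass the test. Among immunoglobulin genes, a family taken up after the values were seen, 4 of 12 rose and none fell. Igkv6-20, a kappa light chain variable segment, showed the largest rise of any gene named here. It stood at 8.71, 7.10 and 7.91 at 6 months and 11.84, 11.23 and 11.18 at 14 months, a change of 3.51 ± 0.61 (adjusted p = 0.00135). Variable segments resemble each other closely, so a probe set may read several of them, and pools can differ in the clones they hold. Igkv9-120 illustrates this spread, with 9.89, 7.74 and 8.79 at 6 months and 12.57, 10.01 and 10.43 at 14 months.

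B progenitor genes moved in the same direction. Of 22 members 13 rose, 1 fell, and the median change was 0.80. Dntt, the terminal transferase that adds bases at the joints of rearranging immunoglobulin genes, had the smallest p value. Its values were 5.90, 5.95 and 6.48 at 6 months and 7.76, 7.93 and 8.28 at 14 months, a rise of 1.88 ± 0.17 (adjusted p = 3.75e-06). Pax5, the factor that commits cells to the B lineage, was at 7.89, 8.11 and 7.59 at 6 months and 8.77, 9.04 and 9.37 at 14 months and rose by 1.20 ± 0.19 (adjusted p = 0.000602). Cd79a, the signalling chain of the B-cell receptor, read 8.87, 9.01 and 9.10 at 6 months and 10.56, 10.34 and 10.63 at 14 months with narrow spread at both ages. It rose by 1.52 ± 0.26 (adjusted p = 0.00145). Rag1, whose product cuts immunoglobulin genes, Il7r, the receptor of the progenitors' growth factor, Lef1 and Sox4 rose by 1.15 to 1.32. Rag2, Igll1, Vpreb2 and Vpreb3 did not pass the test. The member that fell was Mme, which stromal cells also express, with a change of -0.97 ± 0.23.

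Ebf1 and Foxo1 belong to this group and also act in fat, Ebf1 in adipocyte formation and Foxo1 in insulin signalling. Ebf1 measured 9.04, 8.34 and 8.80 at 6 months and 9.54, 9.41 and 9.76 at 14 months, with all 14-month pools higher and a change of 0.85 ± 0.18 (adjusted p = 0.0057). Foxo1 measured 8.08, 7.54 and 8.14 at 6 months and 8.92, 8.74 and 9.15 at 14 months, a rise of 1.01 ± 0.18 (adjusted p = 0.0015). Both changes differed from those of epididymal adipocytes, where the genes had -0.34 and -0.50 (adjusted p of the difference 0.00386 and 0.000397).

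The promoters of the B-lineage risers are shown because they share the rise with Ebf1. RefSeq promoter windows (GRCm38.p6, 250 bases before to 50 after the start) were at hand for 24 of the 29 risers. The letters CCCNNGGGA, part of the palindrome that early B-cell factors bind, were searched on both strands. They occurred in 3 of them (12.5%), Cd22, Foxo1 and Sdc1, and in 7.48% of all genes with a window. The cAMP response element TGACGTCA was in none, against 2.03% of all genes with a window. The E-box CACGTG was in the window of Lef1 only (4.17%), against 8.09%. These are descriptions of letters and not of binding. Capitals mark the match in the pair below, where overlapping matches on both strands run together.
Cd22 promoter, chr7:30878979-30879278, minus strand: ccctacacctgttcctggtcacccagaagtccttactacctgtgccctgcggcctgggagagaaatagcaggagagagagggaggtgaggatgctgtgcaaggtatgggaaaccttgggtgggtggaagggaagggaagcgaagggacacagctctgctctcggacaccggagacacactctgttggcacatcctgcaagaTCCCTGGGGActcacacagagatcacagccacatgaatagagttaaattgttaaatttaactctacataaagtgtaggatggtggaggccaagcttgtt
Foxo1 promoter, chr3:52268087-52268386, plus strand: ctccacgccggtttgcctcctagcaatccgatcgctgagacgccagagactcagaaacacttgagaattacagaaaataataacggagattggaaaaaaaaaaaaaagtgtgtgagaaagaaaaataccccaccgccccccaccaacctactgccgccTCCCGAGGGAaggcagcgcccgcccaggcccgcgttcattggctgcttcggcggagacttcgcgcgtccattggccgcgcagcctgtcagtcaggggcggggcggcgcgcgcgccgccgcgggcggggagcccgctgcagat

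**Figure D2:**
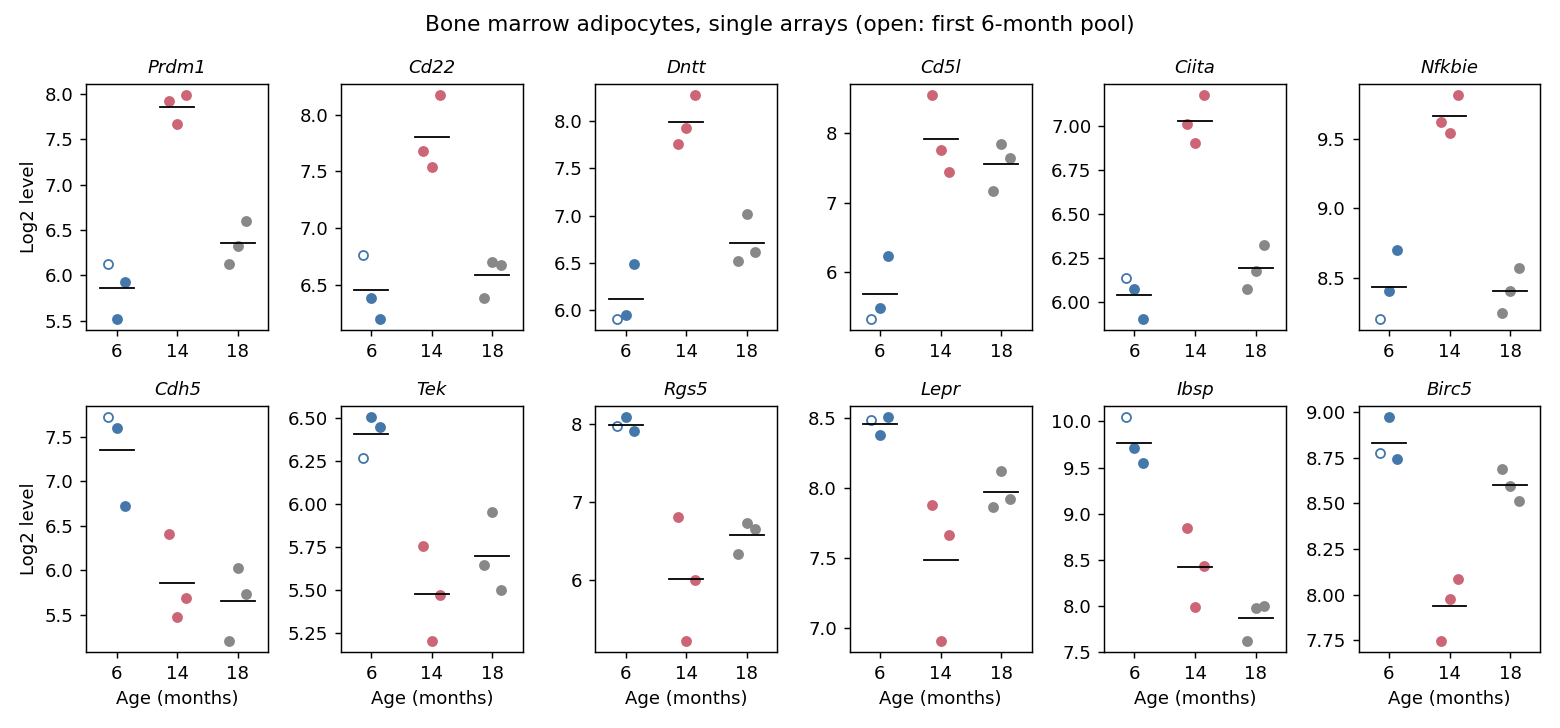
Log2 level in each bone marrow array (points) at 6, 14 and 18 months for 12 genes, with the group mean as a bar. The upper 6 panels hold genes whose 14-month pools all lie above the 6-month pools, and the lower 6 panels hold genes whose 14-month pools all lie below them. The open point is the first 6-month pool, which stood apart from the other arrays.

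T-cell and natural killer genes gave a smaller count, with 6 of 23 higher and 1 lower, and a median change of 0.41. Cd3g, a chain of the T-cell receptor complex, measured 5.54, 6.64 and 6.21 at 6 months and 7.63, 7.79 and 7.72 at 14 months and rose by 1.59 ± 0.29 (adjusted p = 0.00182). Cd8a, the co-receptor of cytotoxic T cells, rose by 1.24 ± 0.17 and the pore protein perforin (Prf1) by 0.90 ± 0.14. The defining markers Cd3d and Cd3e changed by 0.57 and 0.47 and did not pass the test. The adaptor gene Lat went the other way, by -1.19 ± 0.23. The Gimap genes, lymphocyte GTPases clustered on a chromosome and again taken up after their values were seen, held 6 rises among 8.

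Macrophage genes rose in part. Of 23 members 10 rose and none fell, with a median of 0.62, although 5 passed the test without the first 6-month pool. The mean log2 level of the group was 8.28, 8.38 and 8.41 at 6 months and 9.40, 8.81 and 8.77 at 14 months, highest in the first 14-month pool. Without that pool 2 members rose, and without the third 14-month pool 6. Cd5l, a secreted protein of tissue macrophages, was at 5.33, 5.49 and 6.23 at 6 months and 8.55, 7.76 and 7.44 at 14 months. Each 14-month pool was more than 1 log2 unit above the highest 6-month pool, and the rise was 2.24 ± 0.25 (adjusted p = 3.65e-05). Cd163, the receptor by which macrophages take up haemoglobin, read 5.21, 6.00 and 6.03 at 6 months and 7.96, 6.77 and 6.72 at 14 months and rose by 1.40 ± 0.27 (adjusted p = 0.00283). The iron exporter ferroportin (Slc40a1) rose by 1.10 ± 0.26 (adjusted p = 0.0112). Vsig4, the complement receptor of resident macrophages, was among the largest rises of all genes. Its values were 4.10, 3.89 and 4.25 at 6 months and 6.93, 6.26 and 5.52 at 14 months, a change of 2.15 ± 0.39 (adjusted p = 0.002), and its 14-month pools were widely spread. Spic, the factor for iron-recycling macrophages, and Timd4 rose by 0.94 and 1.12. The general markers split. Csf1r rose by 0.79 ± 0.19 (adjusted p = 0.0153) and Cd68 by 0.75, while Adgre1, at 0.66, missed the limit (adjusted p = 0.0718). Without the first 6-month pool neither Csf1r (adjusted p = 0.0661) nor Cd68 (0.0632) was called.

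The MHC class II genes, through which B cells, macrophages and dendritic cells present peptides, rose almost as a whole. Of 9 members 8 rose, both with all arrays and without the first 6-month pool, and H2-DMa did not pass the test. Without any single 14-month pool 7 rose, and in the fit of the 6 arrays alone 2. The median change with all arrays was 0.99. H2-Ob, whose product restrains peptide loading and is found mainly in B cells, had the largest. It stood at 8.03, 7.29 and 8.18 at 6 months and 9.51, 9.50 and 9.93 at 14 months and rose by 1.81 ± 0.21 (adjusted p = 5.73e-05). Ciita, the master activator of the class, read 6.13, 6.07 and 5.90 at 6 months and 7.01, 6.90 and 7.17 at 14 months, with all pools of an age close together. It rose by 0.99 ± 0.15 (adjusted p = 0.000515). H2-Ab1 rose by 1.00 ± 0.17, H2-Eb1 by 0.79 ± 0.14 and H2-Aa by 0.72 ± 0.13. In epididymal adipocytes the same 9 genes had a median change of 1.82, and 5 of them changed less positively in bone marrow by the test of the difference.

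NF-kB subunits and the inhibitors that their own activity induces moved upward together in the marrow preparation. Of 17 members 12 rose and none fell, with a median change of 0.71. Without the first 6-month pool 10 rose, and in the fit of the 6 arrays alone 3. Among the subunits Rel rose by 0.71 ± 0.17, Nfkb2 by 0.72 ± 0.19 and Relb by 0.84 ± 0.17, while Rela did not pass. Without the first 6-month pool Nfkb2 lost its call (adjusted p = 0.0553). Among the inhibitors Nfkbib, Tnip1 and Bcl3 did not pass the test. Nfkbie measured 8.20, 8.40 and 8.70 at 6 months and 9.62, 9.54 and 9.82 at 14 months, a rise of 1.23 ± 0.15 (adjusted p = 9.35e-05). Nfkbid measured 9.48, 9.84 and 9.57 at 6 months and 10.75, 10.60 and 10.83 at 14 months, a rise of 1.10 ± 0.16 (adjusted p = 0.000317). The 14-month pools of both genes lay close together and above all 6-month pools. Tnfaip3, which encodes the ubiquitin-editing enzyme A20, gave 10.42, 11.21 and 10.53 at 6 months and 11.69, 11.60 and 11.77 at 14 months and rose by 0.96 ± 0.17 (adjusted p = 0.00127). Traf1, an adaptor that NF-kB induces, rose by 1.14 ± 0.16 (adjusted p = 0.000194).

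Cytokine and chemokine genes divided. Of 23 inflammatory cytokines and receptors 6 rose and 1 fell. Without the third 6-month pool 3 rose and without the third 14-month pool 2. Tumour necrosis factor (Tnf) was at 9.34, 9.88 and 9.25 at 6 months and 10.76, 10.52 and 10.90 at 14 months and rose by 1.24 ± 0.19 (adjusted p = 0.0004), and leukaemia inhibitory factor (Lif) rose by 1.04 ± 0.16. Interleukin 6 (Il6) fell, from 8.07 ± 0.41 to 6.92 ± 0.57 (mean and SD, n = 3), a change of -1.15 ± 0.29 (adjusted p = 0.0187), and its call was lost without the first 6-month pool (adjusted p = 0.0748). Il1b, at 0.45, did not pass. Of 24 chemokines and chemokine receptors 6 rose and none fell. They included Cxcl10, which draws activated T cells, at 8.0, 7.60 and 8.34 at 6 months and 9.46, 9.07 and 9.35 at 14 months, a rise of 1.31 ± 0.18 (adjusted p = 0.000233). Cxcr5, which guides B cells into follicles, rose by 1.38 ± 0.25 and Ccl5 by 1.03 ± 0.22. The genes of the neutrophil attractants Cxcl1 and Cxcl2 did not pass the test. Of 24 interferon-stimulated genes 4 rose, with 20 positive changes and a median of 0.28, and 2 to 3 rose with a single array left out. Of 17 Toll-like receptor and adaptor genes, Tlr6, Tlr2 and Tlr9 rose by 1.02 ± 0.18, 0.79 ± 0.14 and 0.89 ± 0.17.

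MicroRNA genes are shown with their sequences because several of those that rose are known from immune cells. The array reads the hairpin region of a gene and not the mature strand, and these genes were picked after their values were seen. Of 296 on the array 6 rose and 2 fell, fewer in proportion than among all probe sets. The mature sequences of the risers follow, from RefSeq on GRCm38.p6, read 5′ to 3′, with the seed (bases 2 to 8) in capitals. Each was taken from 1 arm of the hairpin, except miR-142a with both.
miR-155-5p: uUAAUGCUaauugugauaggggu
miR-146a-5p: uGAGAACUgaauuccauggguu
miR-142a-5p: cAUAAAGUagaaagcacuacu
miR-142a-3p: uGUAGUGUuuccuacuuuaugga
miR-103-3p: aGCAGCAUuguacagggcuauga
miR-19a-3p: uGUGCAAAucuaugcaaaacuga
miR-19b-3p: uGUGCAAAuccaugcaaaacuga

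Mir155, which activated B cells and macrophages express, had the smallest p value of these. Its hairpin (chr16:84714140-84714204) read 5.86, 5.25 and 5.34 at 6 months and 6.65, 6.87 and 7.08 at 14 months. No pool overlapped between ages, and the rise was 1.38 ± 0.17 (adjusted p = 8.57e-05). Mir142, a gene of blood cells, read 6.50, 7.44 and 7.63 at 6 months and 8.45, 8.57 and 8.49 at 14 months and rose by 1.31 ± 0.21 (adjusted p = 0.000861). Mir146, which NF-kB induces and which holds back its signalling, read 2.99, 4.26 and 3.79 at 6 months and 4.37, 4.61 and 5.39 at 14 months. It rose by 1.11 ± 0.25 (adjusted p = 0.00778). Mir146, Mir103-2, Mir19a and Mir19b-1 were dim, with a mean log2 level under 6 at both ages, and they dropped out where a mean of 6 was required. No detection call was used here, so it is not known how far these probe sets stood above background. The Mir103-2 hairpin rose by 1.06 ± 0.20 (adjusted p = 0.00267).

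Mir19a and Mir19b-1 share the seed GUGCAAA, and their mature strands of 23 bases differ at 1 base. Both lie in the Mir17 cluster, 6 hairpins within 836 bases (chr14:115043671-115044506, plus strand). Mir19b-1 read 3.88, 4.43 and 4.59 at 6 months and 6.11, 5.15 and 5.75 at 14 months and rose by 1.37 ± 0.25 (adjusted p = 0.00172). Mir19a read 2.90, 3.92 and 4.57 at 6 months and 5.02, 4.35 and 5.38 at 14 months, with overlap between ages, and its rise of 1.12 ± 0.30 was not called without the first 6-month pool (adjusted p = 0.104). The other members on the array, Mir17, Mir18 and Mir20a, changed by 0.52, 0.76 and 1.04 and did not pass the test. The host transcript Mir17hg changed by 0.14. The falls, Mir668 and Mir26a-1, were of -0.40 and -0.38, and Mir668 was not called without the first 6-month pool (adjusted p = 0.0994).

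**Figure D3:**
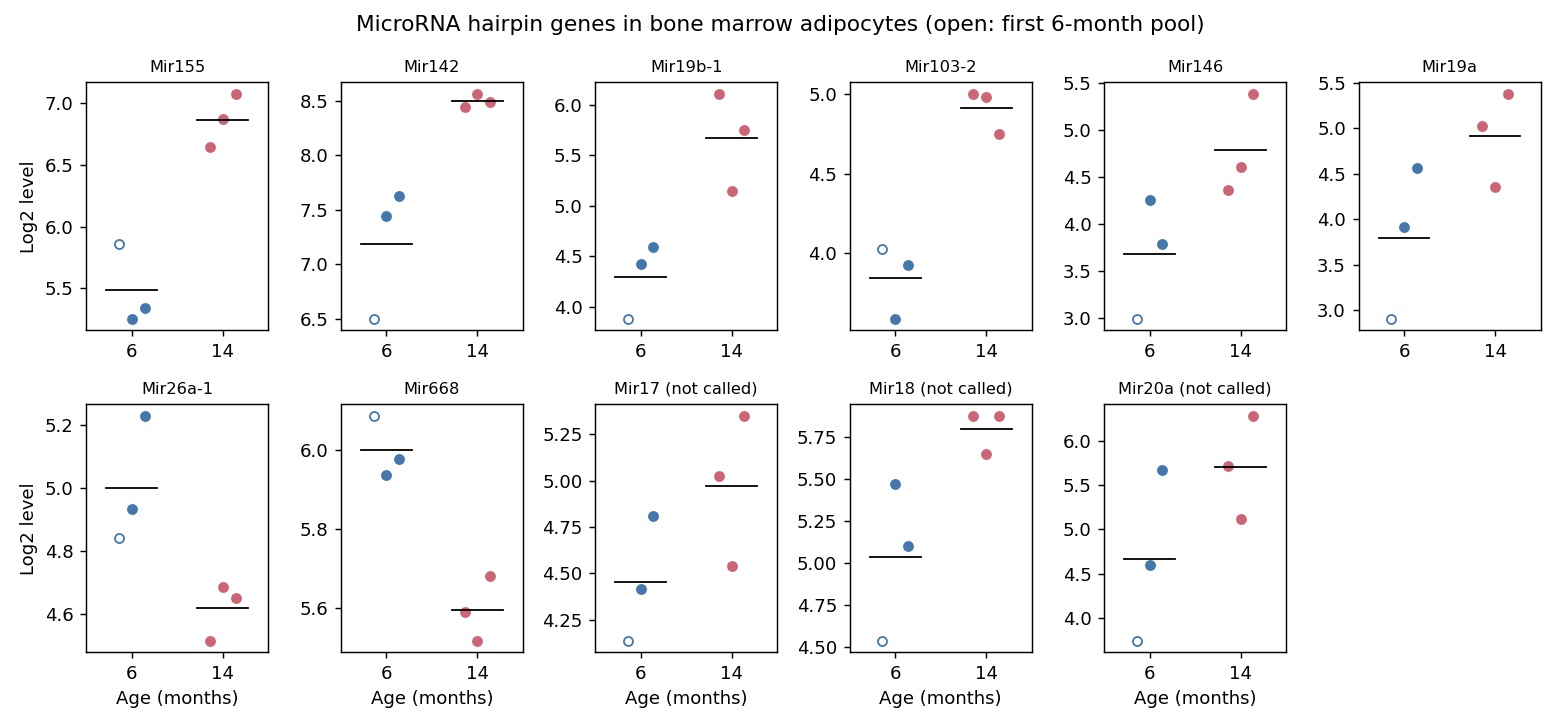
Log2 level of microRNA hairpin genes in each bone marrow array at 6 and 14 months (points) with the group mean as a bar, for the 8 called genes and for 3 further members of the Mir17 cluster that were not called. Mir155, Mir142, Mir19b-1, Mir103-2 and Mir146 have no overlap between ages, whereas Mir19a, Mir17 and Mir20a overlap.

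Other large rises came from genes outside the groups above. Plk2, a kinase of the stress response, read 7.25, 9.29 and 8.29 at 6 months and 10.61, 10.47 and 10.88 at 14 months and rose by 2.37 ± 0.31 (adjusted p = 0.000157). Its 6-month pools were widely spread while the 14-month pools lay close together. Arrdc3, a regulator of receptor uptake, read 8.92, 9.64 and 9.38 at 6 months and 11.31, 11.37 and 11.32 at 14 months and rose by 2.02 ± 0.21 (adjusted p = 1.94e-05). The clock repressor gene Bhlhe41 was at 5.11, 5.51 and 5.43 at 6 months and 7.05, 7.30 and 7.84 at 14 months, a rise of 2.04 ± 0.19 (adjusted p = 6.86e-06). Of 17 clock genes it rose with Bhlhe40 (0.58 ± 0.15) and Per1 (0.65 ± 0.17) only, and Arntl, Clock and Per2 did not pass the test. Without the third 14-month pool 1 clock gene rose. Castor1, an arginine sensor of the mTORC1 pathway, rose by 1.94 ± 0.18 and the kinase gene Stk38l by 2.02 ± 0.19. Death-promoting members of the BCL2 family, Pmaip1 (Noxa), Bmf and Bcl2l11 (Bim), rose by 2.00 ± 0.37, 1.07 ± 0.17 and 0.83 ± 0.20, and the other 11 members did not pass. Early response genes of the EGR and NR4A kind held 5 rises among 20, led by Egr2 at 6.12, 7.41 and 6.08 at 6 months and 8.45, 8.06 and 8.48 at 14 months. Egr2 rose by 1.80 ± 0.25 (adjusted p = 0.000233), whereas without the first 6-month pool 2 members of the group rose and without the third 14-month pool 2. The mean of the group in the second 6-month pool was 9.94, against 8.99 and 9.11 in the other 6-month pools and 9.82, 9.87 and 10.05 at 14 months, and without that pool 12 members rose. Of 25 genes of the unfolded protein response 4 rose, Herpud1 and the kinase gene Eif2ak3 (PERK) by 1.02 ± 0.11 and 0.94 ± 0.13, and with a single array left out 3 to 8 rose. The chaperone gene Hspa5 did not pass the test, and Calr, another chaperone, fell, changing by -0.47 ± 0.12, a call lost without the first 6-month pool (adjusted p = 0.0871).

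Endothelial genes fell in large part. Of 21 members 11 fell and none rose, against 3.58% of all probe sets, and the median change was -0.77. The count was 11 without the first 6-month pool and 7 without the third 14-month pool, but 1 in the fit of the 6 arrays alone. Cdh5, the cadherin of endothelial junctions, was at 7.72, 7.60 and 6.72 at 6 months and 6.41, 5.47 and 5.69 at 14 months. All 14-month pools were lower, and the change was -1.49 ± 0.25 (adjusted p = 0.000963). Emcn, a mucin of sinusoids and capillaries, read 7.81, 6.57 and 6.15 at 6 months and 5.93, 4.99 and 5.23 at 14 months, a change of -1.46 ± 0.32 (adjusted p = 0.00755). The angiopoietin receptor gene Tek read 6.27, 6.51 and 6.45 at 6 months and 5.75, 5.20 and 5.47 at 14 months and fell, changing by -0.93 ± 0.14 (adjusted p = 0.000464). Tie1, Esam, Plvap, Cldn5, Egfl7, Eng, Flt4 and Robo4 fell as well, with changes of -0.57 (Robo4) to -1.01 (Esam), and Robo4 was not called without the first 6-month pool (adjusted p = 0.074). Pecam1, which blood cells express too, Kdr (adjusted p = 0.0644) and Vwf did not pass. Rgs5, a marker of the pericytes that wrap vessels, had the largest fall of all genes named here. It stood at 7.98, 8.10 and 7.91 at 6 months and 6.80, 5.21 and 6.00 at 14 months, a change of -1.99 ± 0.24 (adjusted p = 7.2e-05), and its 14-month pools were widely spread. Rhoj and Epas1, both strongly expressed in endothelium, fell, changing by -1.61 ± 0.24 and -1.41 ± 0.22.

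Of the 11 endothelial genes that fell 8 had a promoter window, and none of these windows held any of the letters searched above. Each of these letter strings occurred in only 2.03% to 8.09% of all genes with a window, so their absence from 8 genes says little.

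Marrow stromal and bone-forming genes fell in part. Of 17 niche genes 6 fell and none rose, with a median of -0.50. The mean log2 level of the group was 8.20, 8.35 and 8.31 at 6 months and 8.29, 7.53 and 7.74 at 14 months. The first 14-month pool thus lay within the 6-month range, and without it 10 members fell. The same pool was highest of its age for collagen chains (6.64, 7.06 and 6.70 at 6 months and 6.62, 6.24 and 6.28 at 14 months) and for fibroblast genes (7.01, 6.96 and 6.89 at 6 months and 6.97, 6.66 and 6.74 at 14 months). Lepr, the leptin receptor that marks adipocyte precursors of the marrow, read 8.49, 8.38 and 8.51 at 6 months and 7.88, 6.91 and 7.67 at 14 months. Its 6-month pools lay close together, and the change was -0.97 ± 0.18 (adjusted p = 0.00237). Kitl, stem cell factor, read 8.16, 7.93 and 8.01 at 6 months and 7.70, 6.52 and 6.92 at 14 months and fell, changing by -0.99 ± 0.20 (adjusted p = 0.00499). Ebf3, a factor of the same stromal cells, fell, changing by -0.94 ± 0.16 (adjusted p = 0.00147). The chemokine gene Cxcl12 changed by -0.48 and did not pass (adjusted p = 0.196), nor did Il7, Vcam1 or Angpt1.

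Of 15 osteoblast-lineage genes 6 fell and 1 rose, and without the second or the third 14-month pool 3 fell. Ibsp, bone sialoprotein, was at 10.05, 9.72 and 9.55 at 6 months and 8.84, 7.98 and 8.43 at 14 months, a change of -1.35 ± 0.22 (adjusted p = 0.000744). Mmp13, the collagenase of bone, fell, changing by -1.50 ± 0.37, Sparc (osteonectin) by -1.24 ± 0.24 and the parathyroid hormone receptor gene Pth1r by -0.65 ± 0.15. Ifitm5, a membrane protein of mineralizing osteoblasts, was the riser, at 6.07, 5.84 and 5.81 at 6 months and 7.26, 6.79 and 7.05 at 14 months and a change of 1.13 ± 0.13 (adjusted p = 3.11e-05). The early osteoblast genes Sp7 and Alpl, at -0.32 and -0.49, did not pass. Among collagen chains 5 of 15 fell, though 2 without the second 6-month pool and 1 without the second or the third 14-month pool. Col1a1 fell from 9.20 ± 1.08 to 7.88 ± 0.29 (mean and SD, n = 3). The small proteoglycan genes Bgn and Dcn fell, changing by -1.26 ± 0.29 and -1.04 ± 0.23, and the metalloproteinase inhibitor gene Timp3 by -1.50 ± 0.30. The Wnt antagonist gene Wif1 read 6.10, 6.83 and 6.72 at 6 months and 5.22, 5.20 and 5.33 at 14 months and fell, changing by -1.30 ± 0.16 (adjusted p = 7.1e-05), the 1 member of 11 such genes to do so. In the IGF system the binding protein genes Igfbp3, Igfbp4, Igfbp5 and Igfbp7 fell, with changes of -1.03 ± 0.17, -0.69 ± 0.21, -0.99 ± 0.20 and -1.29 ± 0.29. The call of Igfbp4 was lost without the first 6-month pool (adjusted p = 0.0539). Without the second or the third 14-month pool 2 genes of this system fell. The ligand genes Igf1 and Igf2 did not pass.

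Proliferation genes fell in part. Of 34 members 9 fell and none rose, 18 had all 14-month pools below the 6-month pools against 10.0% of all probe sets, and the median was -0.42. Birc5, survivin, was at 8.78, 8.97 and 8.74 at 6 months and 7.75, 7.98 and 8.09 at 14 months and fell, changing by -0.89 ± 0.13 (adjusted p = 0.000351). Cdk1, the mitotic kinase, read 10.89, 9.85 and 9.69 at 6 months and 8.82, 9.12 and 8.91 at 14 months, a change of -1.19 ± 0.24 (adjusted p = 0.00481). Mki67 changed by -0.65 and its pools did not overlap (11.82, 11.58 and 11.66 at 6 months and 11.04, 11.03 and 11.03 at 14 months), yet it did not pass with an SE of 0.39 from all 18 arrays (adjusted p = 0.357). The median change of the group from 6 to 18 months was 0.20. Erythroid genes held 6 falls among 24 with a median of -0.38, Urod of haem synthesis by -0.80 ± 0.16 and spectrin beta (Sptb) by -0.69 ± 0.14. Of the defining erythroid factors, Gata1 (-0.47) and Klf1 (-0.39) did not pass. Red cells had been lysed during isolation. Platelet genes held 2 falls among 17, with a median change of -0.73, 1 positive change and 13 members at an unadjusted p under 0.05. Their mean log2 level was 9.55, 8.26 and 9.47 at 6 months and 9.07, 8.07 and 8.02 at 14 months. The second 6-month pool and the first 14-month pool stood apart from the others of their age. Without the second 6-month pool 12 members fell, without the first 14-month pool 7, without the first or the third 6-month pool 1, and without the second or the third 14-month pool 0. Pf4, a platelet chemokine, read 9.69, 9.39 and 10.37 at 6 months and 9.58, 8.45 and 8.25 at 14 months, and its pools overlapped.

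Of 12 neutrophil primary granule and progenitor genes Gfi1 rose and Cebpe fell. The median change was -0.59, 2 changes were positive, 8 members had an unadjusted p under 0.05, and 5 fell without the second 6-month pool. Both directions were fragile. Without the first or the second 6-month pool, or without any single 14-month pool, 0 rose. Without the second or the third 14-month pool 0 fell. With the 9 bone marrow arrays alone limma gave 0 rises and 2 falls, and 9 members had an unadjusted p under 0.05. The error shared by all arrays was wide for neutrophil genes such as Ltf, whose SD was 2.56 in the 6-month epididymal arrays, against 0.08 and 0.05 in bone marrow at 6 and 14 months. The model of all arrays called none of 16 later granule genes and 16 mature neutrophil genes (2 and 2 at an unadjusted p under 0.05), and with such an error this says little about the marrow. In the limma fit of the 9 bone marrow arrays 0 and 0 of them fell, 0 and 0 rose, and 5 and 6 had an unadjusted p under 0.05. The median changes of these later granule and mature neutrophil genes were 0.04 and 0.11, with 10 and 11 positive changes. All 14-month pools lay above the 6-month pools for 4 and 2 members, against 9.92% of all probe sets. They lay below for 2 and 3 members, against 10.0%, and these were Camp, Ngp, S100a8, Trem3 and Ly6g. The granule gene Ltf was at 12.99, 12.94 and 13.10 at 6 months and 12.85, 12.87 and 12.94 at 14 months, and its pools overlapped. S100a8 was at 12.67, 12.79 and 12.82 at 6 months and 12.65, 12.62 and 12.58 at 14 months.

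Of the genes that define a fat cell, few passed the test. Adipoq measured 9.05, 7.82 and 7.35 at 6 months and 7.42, 6.43 and 6.87 at 14 months, and its change of -1.17 ± 0.29 passed the test (adjusted p = 0.0174), although 1 pool of 14 months exceeded 1 pool of 6 months. The test without the first 6-month pool gave an adjusted p of 0.0493, and the log2 change of Adipoq without the third 14-month pool had one of 0.0646. Leptin (Lep) changed by -0.67 ± 0.21 (adjusted p = 0.0589), Fabp4 by -0.62 ± 0.22 (adjusted p = 0.1) and perilipin 1 (Plin1) by -0.32 ± 0.23 (adjusted p = 0.479). Pparg, the master factor of adipocytes, had 0.44 ± 0.18 (adjusted p = 0.138). Without the first 6-month pool the fall of Lep was called (adjusted p = 0.000459), and the change of Plin1 turned positive. Among 18 adipokine genes 5 fell and 2 rose, but none fell without the second or without the third 14-month pool. Angptl4, an inhibitor of lipoprotein lipase, fell, changing by -0.86 ± 0.23, and Nampt rose by 0.50 ± 0.12. The call of Angptl4 was lost without the first 6-month pool (adjusted p = 0.0606). The caveolar genes Cavin1 and Cav1 fell, changing by -1.25 ± 0.20 and -0.94 ± 0.21 while the other 14 lipid droplet genes did not pass. Endothelial cells are rich in caveolae too, and their part in this fall was not tested.

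Lipid synthesis genes had no common direction. Of 25 members 3 rose and 1 fell, with a median change of 0.01 and 13 positive changes. The 14-month pools all lay above the 6-month pools for 6 members and all below for 3, Fasn, Acacb and Fads1. Among all probe sets this held for 9.92% and 10.0%. Gpam, the first enzyme of triglyceride assembly, read 6.50, 6.95 and 7.18 at 6 months and 8.04, 7.90 and 8.27 at 14 months and rose by 1.20 ± 0.17 (adjusted p = 0.000296). Scd1, the desaturase that makes oleate, read 9.35, 9.49 and 9.12 at 6 months and 10.17, 9.90 and 10.42 at 14 months and rose by 0.85 ± 0.13 (adjusted p = 0.000669). Acly and Acaca, at 0.30 and -0.29, did not pass, and Fads2 fell, changing by -0.68 ± 0.18, but not without the first 6-month pool (adjusted p = 0.0902). Lipolysis genes gave 1 call in 9, the fall of the kinase subunit gene Prkar2b with a change of -0.57 ± 0.13, and the lipase genes Pnpla2 and Lipe did not pass. Irs2, an adaptor of the insulin receptor, was at 8.04, 8.33 and 7.98 at 6 months and 8.97, 9.05 and 9.23 at 14 months, with every 14-month pool above the 6-month pools, and rose by 0.97 ± 0.17 (adjusted p = 0.00165). In epididymal adipocytes the same gene changed by -2.09, and the test of the difference gave an adjusted p of 1.12e-07.

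Respiratory chain genes fell in part. Complex I had 5 falls in 35 members and complexes II to V had 7 in 38, against 3.58% of all probe sets, with medians of -0.29 and -0.33. All 14-month pools lay below the 6-month pools for 11 and 18 members, against 10.0% of all probe sets, and 10 and 4 changes were positive. With a single array left out 1 to 9 members of complex I and 2 to 15 of complexes II to V fell, the most without the third 6-month pool, and 0 and 0 fell in the fit of the 6 arrays alone. Uqcr11, a subunit of complex III, had the largest fall at 9.15, 8.83 and 7.53 at 6 months and 6.95, 7.10 and 6.98 at 14 months, a change of -1.50 ± 0.26 (adjusted p = 0.00145). Cox6b1 and Ndufc2 fell, changing by -0.90 ± 0.22 and -0.96 ± 0.24, and their 6-month level was highest in the pool that stood apart. Without that pool Cox6b1 lost its call (adjusted p = 0.0581) and 7 members of complex I and 3 of complexes II to V fell. No cytosolic ribosomal protein gene of 46 was called in limma, 7 had an unadjusted p under 0.05 and analysis of variance called 0, with a median of -0.05. In the fits with a single array left out 0 to 1 of these genes rose and 0 to 5 fell. The heat shock gene Hspa1a read 10.01, 9.62 and 9.63 at 6 months and 8.61, 8.61 and 8.57 at 14 months and fell, changing by -1.16 ± 0.16 (adjusted p = 0.000172). Among proteasome subunits Psmb4 was 1 of 4 falls in 33, with a change of -0.92 ± 0.14 (adjusted p = 0.000394), and 2 to 10 fell with a single array left out.

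The study listed age-related genes of its own, and of the 51 measured here 15 rose and 6 fell, and with a single array left out 8 to 17 rose and 3 to 9 fell. That list was chosen on these samples and is not independent evidence of its direction. Besides genes given above, Trib2 rose by 1.49 ± 0.19, Parp2 by 0.46 ± 0.13, Casp9 by 0.58 ± 0.16 and Ppargc1a, the coactivator of mitochondrial genes, by 0.49 ± 0.14. Ptpn11 fell, changing by -0.68 ± 0.12, Adipor2 by -0.74 ± 0.21 and the vitamin D receptor gene Vdr by -0.47 ± 0.12. Parp2, Casp9, Adipor2 and Vdr were not called without the first 6-month pool (adjusted p = 0.101, 0.125, 0.0605 and 0.0522).

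The 18-month arrays give the level at a later age, and since they are set against the same 6-month arrays this is a description. Of the 1189 rises 906 (76.2%) had an 18-month mean closer to the 6-month than to the 14-month mean, as had 420 of the 839 falls (50.1%). These probe sets were picked by their 6-month and 14-month values, and the same share over all probe sets was not computed. The shares thus do not show how many changes reversed by 18 months. The mean log2 level of the mature B-cell group was 7.88, 7.49 and 7.5 at 6 months, 8.71, 8.64 and 8.91 at 14 months and 7.92, 7.68 and 7.81 at 18 months. Its 18-month pools overlapped those of 6 months. The mean over the NF-kB group was 8.73, 8.82 and 8.87 at 6 months, 9.38, 9.31 and 9.62 at 14 months and 8.34, 8.49 and 8.57 at 18 months, lowest at 18 months. For the endothelial group it was 7.0, 7.18 and 6.84 at 6 months, 6.71, 6.19 and 6.20 at 14 months and 6.16, 6.3 and 6.3 at 18 months, and the 18-month pools stayed with those of 14 months. The erythroid mean was 9.91, 10.01 and 10.10 at 6 months, 9.46, 9.79 and 9.76 at 14 months and 10.47, 10.54 and 10.40 at 18 months, highest at 18 months.

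**Figure D4:**
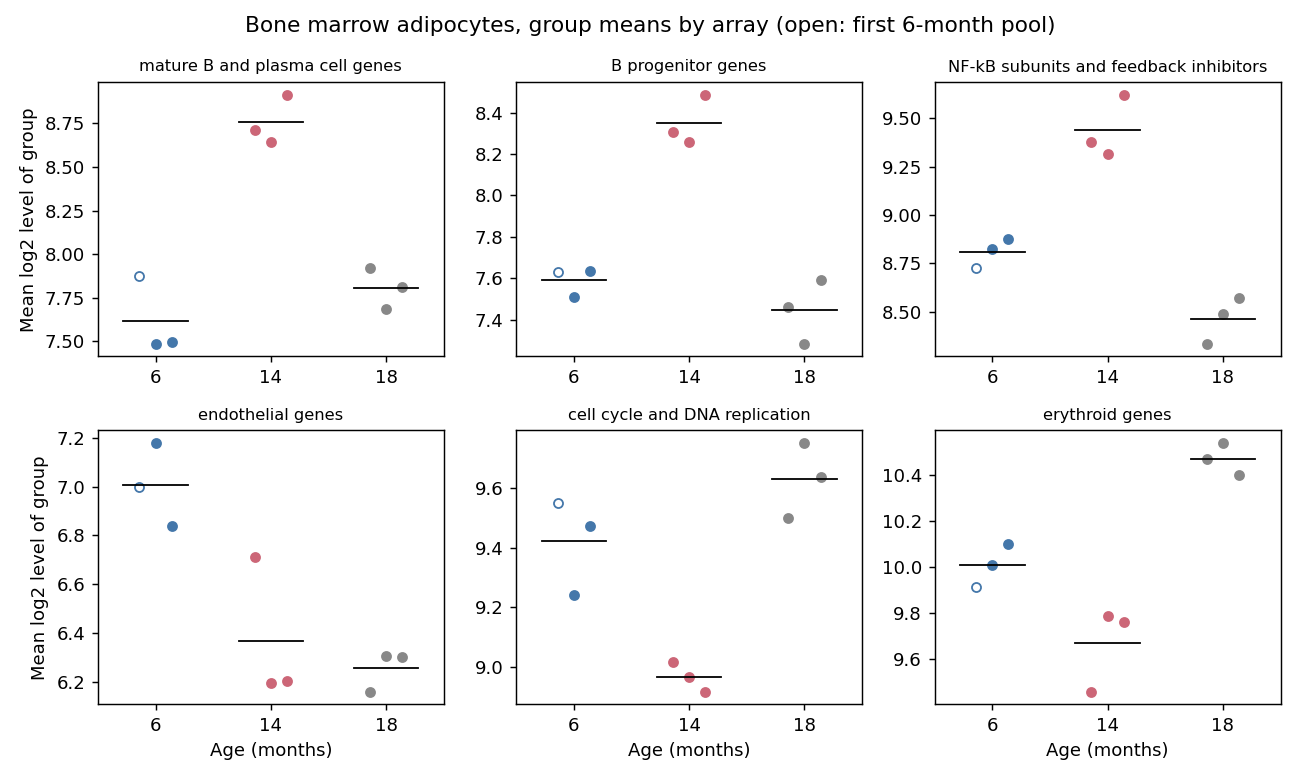
Mean log2 level over the members of 6 gene groups in each of the 9 bone marrow arrays (points; bars are group means) at 6, 14 and 18 months. B-lineage and NF-kB means peak at 14 months, the endothelial mean is low at both later ages, and the cell cycle and erythroid means are lowest at 14 months.

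Epididymal adipocytes of the same ages were measured on other arrays, and the change in them served to ask which marrow changes differed between depots. Both depots came from the same mice, but it is not stated which pools share animals, and the test treats pools as independent. By the interaction test in limma 1187 probe sets (5.07%) changed more positively in bone marrow and 1529 (6.53%) more negatively. Of the 2028 probe sets called in bone marrow 790 (39%) also passed this test. From 6 to 14 months 2392 of the 23410 probe sets rose and 1758 fell in epididymal adipocytes. In bone marrow 5.08% rose and 3.58% fell. Calls of both depots rest on the same error per probe set and are not independent. The rises in both depots were 338 in number, 28.4% of the marrow rises and 14.1% of the epididymal ones. The falls in both were 137, 16.3% and 7.79%. Another 144 rose in marrow and fell in epididymal adipocytes, and 120 did the reverse.

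Endothelial genes had a median change of -0.77 in marrow and 0.82 in epididymal adipocytes, and 15 of 21 differed between depots. NF-kB genes had 0.71 and -0.73, with 10 of 17 different. AP-1 genes such as Fos and Fosb differed for 11 of 12. With all arrays the larger part lay on the epididymal side, where their median was -1.95, against 0.25 in marrow. Only Batf then rose in marrow (0.79 ± 0.15). The marrow result depended on the second 6-month pool, without which 6 of 12 rose, with a median of 0.59. The mean log2 level of the group was 9.494 in that pool, against 8.482 and 8.539 in the other 6-month pools. At 14 months it was 9.005, 9.125 and 9.227. Epididymal cells alone had been digested with collagenase, and the part of isolation in these depot differences was not tested. Fos itself, whose marrow change turned negative with array weights or without the first 6-month pool, changed by 0.40 in marrow and -3.54 in epididymal adipocytes (adjusted p of the difference 3.8e-05). Macrophage genes changed less positively in marrow for 9 of 23 members and more positively for 3.

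**Figure D5:**
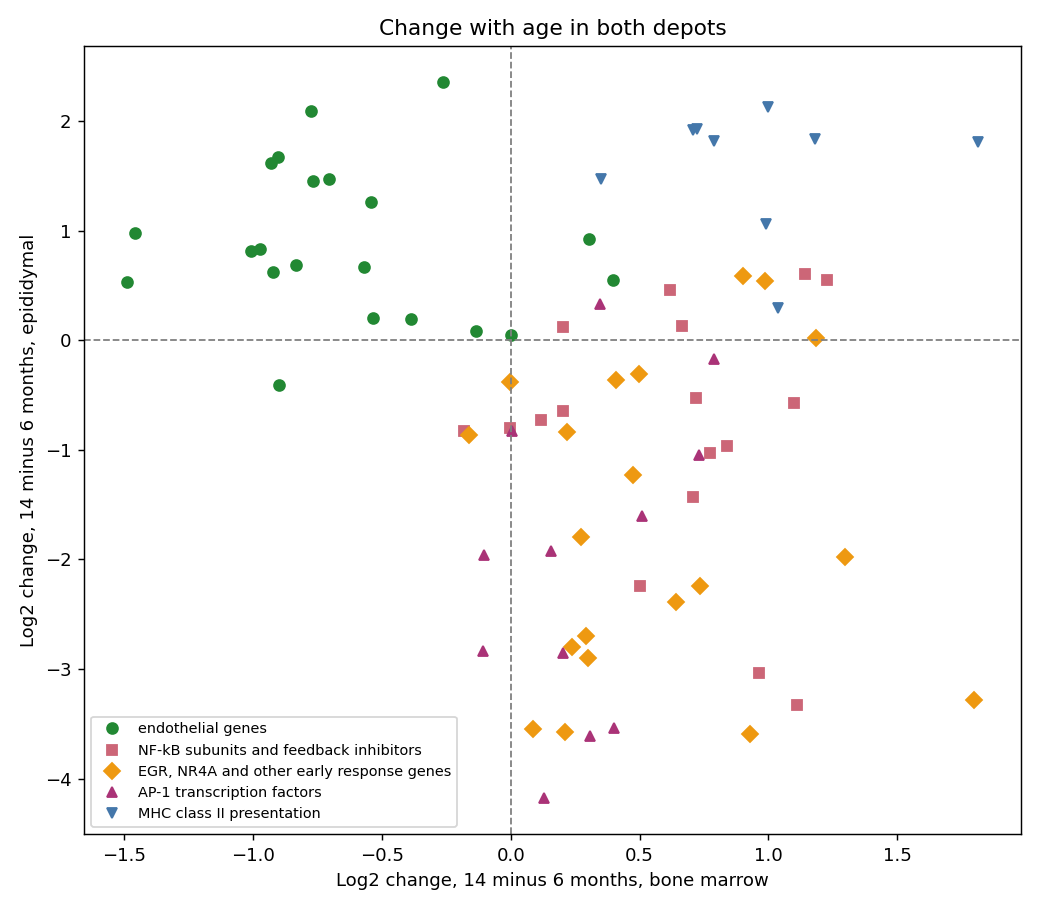
Log2 change from 6 to 14 months in bone marrow adipocytes (horizontal axis) and in epididymal adipocytes (vertical axis) for the members of 5 gene groups, given by colour and marker. Dashed lines mark no change. Endothelial genes lie mostly to the upper left, NF-kB and early response genes mostly to the lower right, and MHC class II genes to the upper right.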

How the data were processed

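RNA of adipocytes from bone marrow and epididymal fat at 6, 14 and 18 months was hybridised to single-colour gene arrays, 3 per group. The deposited values are log2 intensities, which the authors made with quantile normalization and Partek software. The paper's methods name GCRMA, whereas the legend of a supplementary figure names RMA. No scanner files were used here. Of 35556 probe sets 23410 name a gene in the platform annotation and were tested, 1621 of them naming several. Symbols were updated through RefSeq, and for 998 genes with several probe sets the one with the highest mean over all arrays was used. A mean for each of the 6 groups was fitted to all 18 arrays with limma 3.58.1 in R 4.3.3, the contrasts were moderated, and p values were adjusted by Benjamini-Hochberg over all tested probe sets. The fit was tested on simulated data with independent arrays and the same SD in all groups. That simulation cannot judge the shared error under the unequal spread of these groups. Named genes were the 15 largest rises and 15 largest falls among called genes without overlap, of each gene list up to 4 called members with the smallest p and the first 2, the study's age-related genes, the adipocyte markers and the 5 largest depot differences per direction. Further list members, the immunoglobulin, Gimap and microRNA genes, were chosen after their values were seen. The members and the 58 gene lists were chosen with earlier results of these data known, and 1094 of 1218 list genes were found. Alternatives covered scaling, filters, weights, tests and single arrays. The number of arrays limits the precision.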

Additional observations from a re-analysis of the deposited data

Results flagged for a closer look

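The genes whose change from 6 to 14 months differed most between bone marrow and epididymal adipocytes are given here, each by the limma test of the difference itself. Tnfaip6, a hyaluronan-binding protein of inflammation, changed by 0.85 in bone marrow and -2.97 in epididymal adipocytes, a difference of 3.82 (adjusted p = 1.3e-08). Cxcl10 changed by 1.31 and -5.08, a difference of 6.39 (adjusted p = 5.19e-11). For Egr2 the changes were 1.80 and -3.28, a difference of 5.08 (adjusted p = 3e-08). Nfkbiz, an NF-kB cofactor, had 1.11 and -3.33, a difference of 4.44, and Tnfaip3 had 0.96 and -3.04, a difference of 4.0. In all of these the epididymal fall was larger than the marrow rise.

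In the other direction, Mgp, the matrix Gla protein that restrains calcification, changed by -1.25 in bone marrow and 2.52 in epididymal adipocytes, a difference of -3.77 (adjusted p = 1.92e-05). The dipeptidase gene Dpep1 had -1.15 and 2.56, a difference of -3.71. Pamr1 had -0.57 and 2.91, a difference of -3.48. The proteoglycan gene Bgn, biglycan, had -1.26 and 2.02, a difference of -3.29, and Susd2 had -0.85 and 2.32, a difference of -3.17. The marrow falls of Mgp, Dpep1 and Susd2 were not called without the first 6-month pool (adjusted p = 0.0799, 0.0729 and 0.0833). Groups of 3 arrays were too small for a test of single outlying arrays.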

How the results depend on the processing

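The counts of rises, falls and depot differences were 1189, 839 and 2716. With array weights 734 rose and 371 fell, and with a variance weight per group 562 and 238. A fit of the 9 bone marrow arrays gave 543 and 251, and the 6 arrays alone gave 230 and 41. Arrays set equal on ribosomal protein genes gave 326 falls. A fold of at least 2 left 248, 72 and 1315. Leaving out 1 bone marrow array at a time gave 655 to 1748 rises, 376 to 1292 falls and 2108 to 3477 depot differences. Without the third 14-month pool 655 rose and 376 fell, without the second 14-month pool 401 fell, and without the third 6-month pool 1292 fell. The causes were not tested. All other alternatives (all probe sets, 1 probe set per gene, a level of at least 6, ordinary analysis of variance, trend and robust priors, median centring, repeated quantile normalization) stayed within 1.5 times of each count. Deviations of same-numbered arrays correlated at -0.0562, 0.07 and 0.0451 between the marrow of both ages, which came from different mice. Between depots of the same age they correlated at -0.136 to 0.153. The replicate numbers thus gave no sign of a pairing, but this cannot show that pools of both depots held different animals. The fit with the replicate block gave 1157 rises, 837 falls and 2699 depot differences.

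Of 163 genes given by value, 140 of them called, direction changed for Fos (-0.0098 with array weights, and -0.031 to 1.1 with single arrays left out), Plin1 (-0.51 to 0.016 with single arrays left out) and Mir17hg (-0.037 to 0.36 likewise), none of them called. Calls were lost for 21 genes without the first 6-month pool (Adipor2, Angptl4, Atg7, Becn1, Calr, Casp9, Cd68, Cox6b1, Csf1r, Dpep1, Fads2, Igfbp4, Il6, Mgp, Mir19a, Mir668, Nfkb2, Parp2, Robo4, Susd2 and Vdr), and for 37 without the third 14-month pool (Adipoq, Adipor2, Angptl4, Atg7, Bcl2l11, Becn1, Bgn, Bhlhe40, Calr, Casp9, Cd68, Col1a1, Cox6b1, Ctss, Dpep1, Fads2, Igfbp4, Igfbp7, Mgp, Mir146, Mir19a, Mir26a-1, Mir668, Mme, Nampt, Nfkb2, Parp2, Per1, Pf4, Ppargc1a, Prkar2b, Pth1r, Rel, Robo4, Sdc1, Spic and Susd2). The numbers were 11 and 6 without the other 6-month pools, and 19 and 25 without the other 14-month pools. The fit of the 6 arrays lost 93 and that of the 9 bone marrow arrays 55. Fos and Plin1 turned without the first 6-month pool and Mir17hg without the third 14-month pool. The limit on level dropped 18 genes, with a mean under 6 at both ages (Bmp2, Cd3d, Lep, Lif, Mir103-2, Mir146, Mir17, Mir17hg, Mir18, Mir19a, Mir19b-1, Mir20a, Mir26a-1, Mir668, Pamr1, Ppargc1a, Sp7 and Timd4). The number of pools limits the precision.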

Other observations

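Some gene lists not described above are given by their counts, beside which 5.08% of all probe sets rose and 3.58% fell, and by the median over all their measured members. Of 24 lysosome and autophagy genes 4 rose and 0 fell, with a median change of 0.25, and 1 to 5 rose with a single array left out. Those that rose were the protease genes Ctss, by 1.18 ± 0.32 (limma, adjusted p = 0.0251), and Ctsz, by 0.81 ± 0.17, and the autophagy genes Becn1, by 0.57 ± 0.14, and Atg7, by 0.50 ± 0.14. Becn1 and Atg7 were not called without the first 6-month pool (adjusted p = 0.0552 and 0.115) or without the third 14-month pool, and Ctss was not called without the latter. Of 28 genes of TGF-beta, BMP and activin signalling 5 rose and 3 fell, with a median change of 0.07. The receptor gene Tgfbr2 rose by 0.77 ± 0.14 and the inhibitory Smad7 by 0.89 ± 0.19, the ligand gene Bmp2 rose by 0.77 ± 0.16, and the ligand gene Bmp6 fell, changing by -0.80 ± 0.17. Ltbp1, which encodes a protein that holds latent TGF-beta in the matrix, fell with a change of -0.98 ± 0.20.

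Of 12 genes of CDK inhibitors and senescence 0 rose and 2 fell, with a median change of 0.04. Of 16 genes of the tricarboxylic acid cycle 0 rose and 0 fell in the limma test, and their median change was 0.02. With a single array left out 0 to 5 of these 16 rose and 0 to 2 fell, and the 5 rises came without the third 6-month pool. At an unadjusted p under 0.05 the latter group held 6 genes, and analysis of variance called 0.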
